A study of Mus musculus with 9 samples.

Results

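The genes described here are 9 markers by which macrophages of the bone marrow are recognised, namely Adgre1, Mrc1, Cd163, Csf1r, Spic, Cd5l, Siglec1, Timd4 and Marco. They were chosen by name from a written list and found by gene name on the array, where all 9 of 9 are present. They make up 9 of 37316 genes named there and 14 of 56605 probes. All 9 passed the filter on dim probes, and the probe that stands for each gene was well above background on all 9 arrays.

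The samples are mature megakaryocytes (mMKs) from the bone marrow of male mice, the large cells that release platelets, measured on Agilent 1-colour arrays with 3 arrays per group. The groups are controls that were sham-irradiated (Ctrl), mice at 1 day post IR (1 dpi) and mice at 3 days post IR (3 dpi), where IR is a whole-body dose of 5 Gy of gamma rays. Per the methods, mMKs were obtained from flushed marrow by successive positive selection for CD41 and CD42d, the products of Itga2b and Gp5, and the labels call the RNA that of sorted cells. Each experiment used different donor mice. No transgene or deletion is named for these groups, and the labels give neither strain nor age. The selection enriches cells and does not isolate them, so RNA from other marrow cells can be present on the arrays.

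Resident macrophages of the marrow engulf the nuclei shed by maturing red-cell precursors, recycle the iron of aged red cells and clear dying cells. Their survival depends on signals through the CSF1 receptor, and the transcription factor SPIC is needed for the iron-recycling kind.

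On these arrays, the 9 genes split after IR. At 1 dpi, Marco and Siglec1 were higher than in Ctrl and Timd4 and Cd163 were lower, while at 3 dpi 6 of 9 were higher and 0 lower. Values are log2 intensities after subtraction of the 75th percentile of each array, and calls required at least a 2-fold change together with a limma p below 0.05 after Benjamini-Hochberg adjustment over all 29410 genes tested. In 1 dpi against Ctrl, 2 of the 9 genes were called higher, beside 11.7% of all genes tested, and 2 were called lower, beside 3.08%. With the array median as the scale, these shares of all genes were 6.42% and 7.83% and the same numbers of the 9 genes were called. In 3 dpi against Ctrl, 6 were called higher, beside 7.04% of all genes, and 0 lower, beside 1.79%. Csf1r, the smallest of these 6 changes, was not called under several alternatives, which leaves 5. In 3 dpi against 1 dpi, 6 were called higher, beside 4.16% of all genes, and 0 lower, beside 4.48% (with the array median 7 beside 6.05%, and 0 beside 2.82%). With no minimum fold, all 9 genes had an adjusted p under 0.05 from limma in each of the 3 comparisons, which also held for 55.3% of all genes in 1 dpi against Ctrl, 31.9% in 3 dpi against Ctrl and 44.3% in 3 dpi against 1 dpi. The arrays of the compared groups did not overlap for 9 of 9 genes in any comparison, beside 67.2% of all genes in 1 dpi against Ctrl, 47.2% in 3 dpi against Ctrl and 65.2% in 3 dpi against 1 dpi, so that separation alone is common on these arrays.

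The median log2 fold change of the 9 genes was 0.27 at 1 dpi, against 0.23 over all genes tested. At 3 dpi it was 1.38 against 0.12, and between 3 and 1 dpi it was 1.24 against -0.08. Relative to the median of all genes, the log2 change of Spic at 1 dpi was 0.05 and that of Csf1r 0.16. Scaling by the array median moved the median of all genes at 1 dpi to -0.10 and that of the 9 genes to -0.05, and quantile normalization moved them to 0.00 and 0.23. Without Ctrl replicate 1 the median of all genes was 0.13 at 1 dpi and 0.01 at 3 dpi. Under both, Marco and Siglec1 were still called higher and Timd4 and Cd163 lower at 1 dpi. In bulk RNA, fewer cells of a type and less RNA per cell cannot be told apart, and neither can more cells and more RNA per cell.

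**Figure D1:**
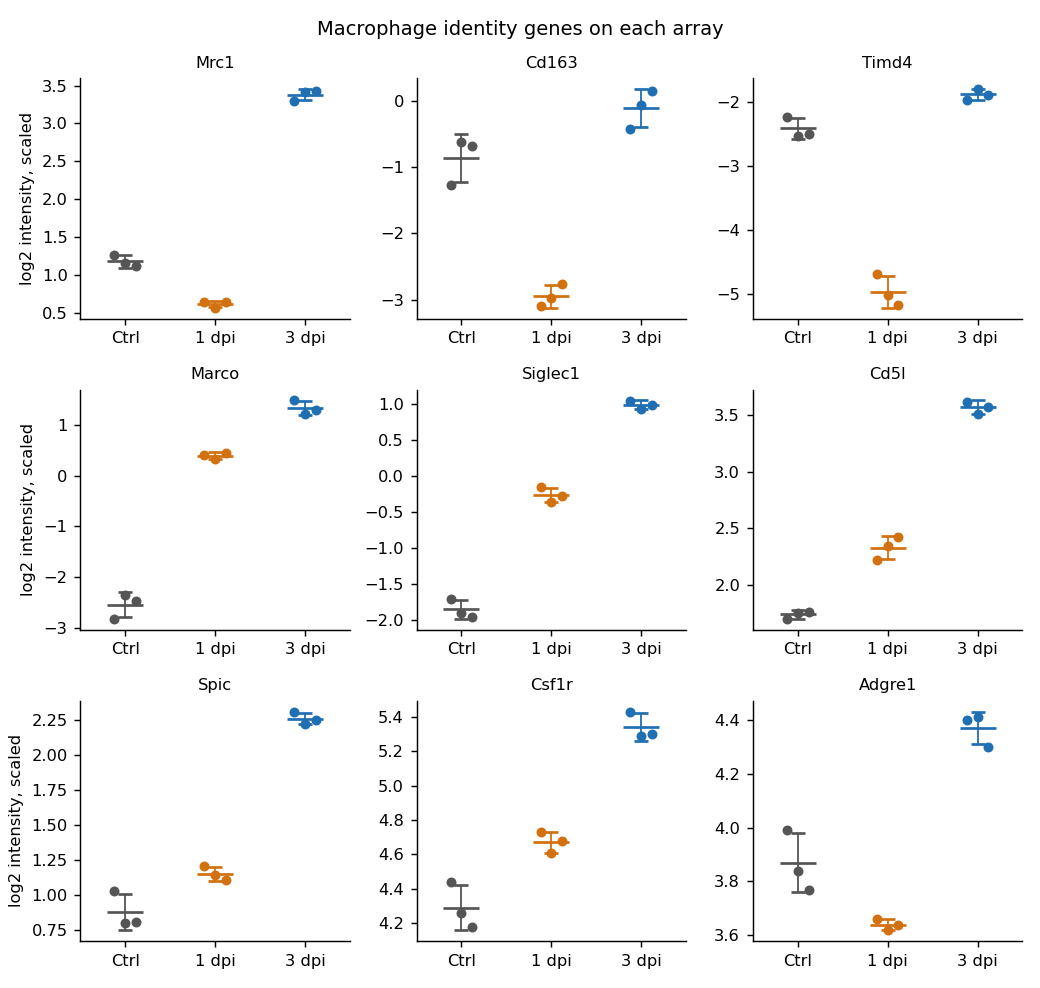
Scaled log2 intensity of the 9 genes (vertical axis, a scale of its own in each panel) on the 3 arrays of each group (points), with the mean (wide bar) and SD (whiskers, n = 3). Timd4 and Cd163 are lowest at 1 dpi and Marco, Siglec1, Cd5l, Spic and Csf1r rise in order from Ctrl to 3 dpi.

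Among the 9 genes, Marco had the largest rise from Ctrl at each day. It encodes a scavenger receptor that binds bacteria and particles on macrophages of the spleen and lymph nodes. Its log2 intensity was -2.82, -2.35 and -2.47 on the Ctrl arrays, 0.40, 0.32 and 0.45 at 1 dpi, and 1.48, 1.21 and 1.30 at 3 dpi. Every irradiated array was above every Ctrl array, and the 3 dpi arrays were above those of 1 dpi. Marco rose by 2.93 ± 0.13 (SE) on the log2 scale at 1 dpi, or 7.64-fold (limma, adjusted p = 3e-06). At 3 dpi it stood 3.87 ± 0.13 above Ctrl on the log2 scale, or 14.6-fold (limma, adjusted p = 6.9e-07), and 3.24 above it after normexp and quantile normalization. Between 3 and 1 dpi the log2 difference was 0.94, with an adjusted p of 0.00099 from limma, and it stayed under the 2-fold minimum.

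Cd163, the receptor that takes up haemoglobin bound to haptoglobin, took another course. The Ctrl arrays read -1.27, -0.62 and -0.68 on the log2 scale, those of 1 dpi -3.10, -2.98 and -2.76, and those of 3 dpi -0.42, -0.07 and 0.14. The 1 dpi arrays lay below all others, and the 3 dpi arrays lay above the Ctrl arrays by a margin smaller than the Ctrl spread. The log2 value fell by 2.09 at 1 dpi (SE 0.21, 4.25-fold, limma, adjusted p = 0.00016). From 1 to 3 dpi it rose by 2.83 (SE 0.21, 7.12-fold, limma, adjusted p = 6.9e-05). Against Ctrl, the 3 dpi value differed by 0.75 on the log2 scale with a 95% confidence interval of 0.26 to 1.24, which was not called.

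Mrc1 encodes the mannose receptor CD206. It read 1.27, 1.16 and 1.12 on the Ctrl arrays, 0.64, 0.57 and 0.64 at 1 dpi, and 3.30, 3.41 and 3.43 at 3 dpi, all on the log2 scale. The 1 dpi arrays were the lowest and the 3 dpi arrays far above both other groups. The difference at 1 dpi was -0.56 (95% confidence interval -0.72 to -0.41), under the 2-fold minimum. At 3 dpi Mrc1 was 4.58-fold above Ctrl (log2 fold change 2.20 ± 0.07 SE, limma, adjusted p = 4.8e-07) and 6.77-fold above 1 dpi.

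Cd5l encodes AIM, a secreted protein of tissue macrophages with scavenger receptor domains. Its log2 intensity was 1.70, 1.75 and 1.76 in Ctrl, 2.22, 2.34 and 2.42 at 1 dpi, and 3.62, 3.51 and 3.57 at 3 dpi. The 3 groups stood apart in that order. The rise at 1 dpi was 1.51-fold and not called, and at 3 dpi Cd5l was 3.56-fold above Ctrl (log2 fold change 1.83 ± 0.07 SE, limma, adjusted p = 1.3e-06).

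Of the receptors that recognise other cells, Timd4 and Siglec1 moved in opposite directions at 1 dpi. TIM-4, the product of Timd4, binds phosphatidylserine on dying cells and marks long-lived resident macrophages. The log2 intensity of Timd4 was -2.24, -2.54 and -2.50 in Ctrl, -4.70, -5.02 and -5.18 at 1 dpi, and -1.97, -1.81 and -1.90 at 3 dpi. The 3 arrays of 1 dpi were far below the rest, and the 3 dpi arrays were slightly above the Ctrl arrays. Timd4 fell by 2.54 on the log2 scale at 1 dpi (SE 0.14, 5.83-fold, limma, adjusted p = 7.2e-06). It rose by 3.07 from 1 to 3 dpi (SE 0.14, 8.42-fold, limma, adjusted p = 9.5e-06), and at 3 dpi its difference from Ctrl was 0.53, which was not called. The signal of Timd4 at 1 dpi was faint. Its mean there, -4.97, was close to -5.28, the bound used at 1 dpi for a dim Cd163 probe described below. The size of the Timd4 changes also depended on the processing. Under all alternatives the log2 fold change of Timd4 was between -2.89 and -1.37 at 1 dpi and between 1.72 and 3.36 from 1 to 3 dpi, with the smallest sizes after normexp and quantile normalization.

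Siglec1 encodes sialoadhesin (CD169), which marks macrophages of the marrow and of lymphoid tissue and is also induced by interferon. It read -1.71, -1.90 and -1.95 on the log2 scale in Ctrl, -0.15, -0.36 and -0.27 at 1 dpi, and 1.04, 0.93 and 0.99 at 3 dpi. The groups did not overlap and rose in order of time. The rise was 3.02-fold at 1 dpi (log2 fold change 1.59 ± 0.09 SE, limma, adjusted p = 8e-06) and 7.16-fold at 3 dpi (log2 fold change 2.84 ± 0.09 SE, limma, adjusted p = 4.8e-07). With the mean of its 3 probes, the log2 fold change at 3 dpi was 2.21. That mean includes the probe at base 1417, which was well above background on 2 of 3 Ctrl arrays. All 15 genes of a list of interferon-induced genes were called higher at 1 dpi, and 8 of them at 3 dpi (11 and 5 with the array median). Between 3 and 1 dpi, 9 of the 15 were called lower (6 with the array median) while Siglec1 was called higher, by 2.37-fold. Among all genes, 11.7% were called higher at 1 dpi, 7.04% at 3 dpi, and 4.48% lower between 3 and 1 dpi. With the array median these shares were 6.42%, 6.27% and 2.82%. The part of interferon in the change of Siglec1 was not tested.

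Csf1r encodes the receptor of CSF1 and IL-34, on which macrophages depend for survival. Its log2 intensity was 4.44, 4.26 and 4.18 in Ctrl, 4.73, 4.61 and 4.68 at 1 dpi, and 5.43, 5.29 and 5.30 at 3 dpi. The groups rose in order without overlap. At 3 dpi Csf1r was 2.07-fold above Ctrl (log2 fold change 1.05 ± 0.08 SE, limma, adjusted p = 5.7e-05), just past the 2-fold minimum. The call was lost with the array median (0.90), quantile normalization (1.00), the deposited log2 table (0.99) and the mean of both Csf1r probes (0.84), and without Ctrl replicate 3 (0.99). The ligand Csf1 had log2 fold changes of 0.63 at 1 dpi and 0.36 at 3 dpi, which were not called. The other ligand, Il34, was 4.76-fold above Ctrl at 3 dpi (limma, adjusted p = 0.00034). The CSF1 receptor axis had 17 genes tested, with 2 called higher and 1 lower on the first day after IR (1 and 1 with the array median, 2 and 0 after quantile normalization). At 3 dpi 2 of the 17 were called higher and 0 lower. Csf2, named after its values were seen and called higher at each day, was well above background on 2 of 3 Ctrl arrays. Leaving Csf2 out, the upward calls dropped to 1 at each day. Over all genes tested, the call rate on the first day was 11.7% up and 3.08% down. The array median made it 6.42% and 7.83%, and quantile normalization 6.6% and 5.14%. By 3 dpi the call rate was 7.04% up and 1.79% down.

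Spic encodes a transcription factor of the ETS family. It read 1.03, 0.80 and 0.81 on the log2 scale in Ctrl, 1.21, 1.14 and 1.11 at 1 dpi, and 2.31, 2.22 and 2.25 at 3 dpi. The 1 dpi arrays stood just above the Ctrl arrays and the 3 dpi arrays well above both. The difference at 1 dpi, 0.27 on the log2 scale, was not called, and with the array median as the scale it was -0.05. At 3 dpi Spic was 2.60-fold above Ctrl (log2 fold change 1.38 ± 0.08 SE, limma, adjusted p = 8.7e-06). Of the related factor Spi1, which encodes PU.1, the log2 fold changes were -0.03 at 1 dpi and -0.16 at 3 dpi, and neither was called.

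Adgre1 encodes F4/80, the surface protein by which mouse macrophages are commonly stained. The Ctrl arrays read 3.99, 3.84 and 3.77 on the log2 scale, those of 1 dpi 3.66, 3.62 and 3.64, and those of 3 dpi 4.40, 4.41 and 4.30. The 1 dpi arrays lay just below and the 3 dpi arrays above those of Ctrl. The log2 fold change was -0.23 at 1 dpi (95% confidence interval -0.40 to -0.06) and 0.50 at 3 dpi (0.33 to 0.67), and Adgre1 was called in 0 of the 3 comparisons.

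**Figure D2:**
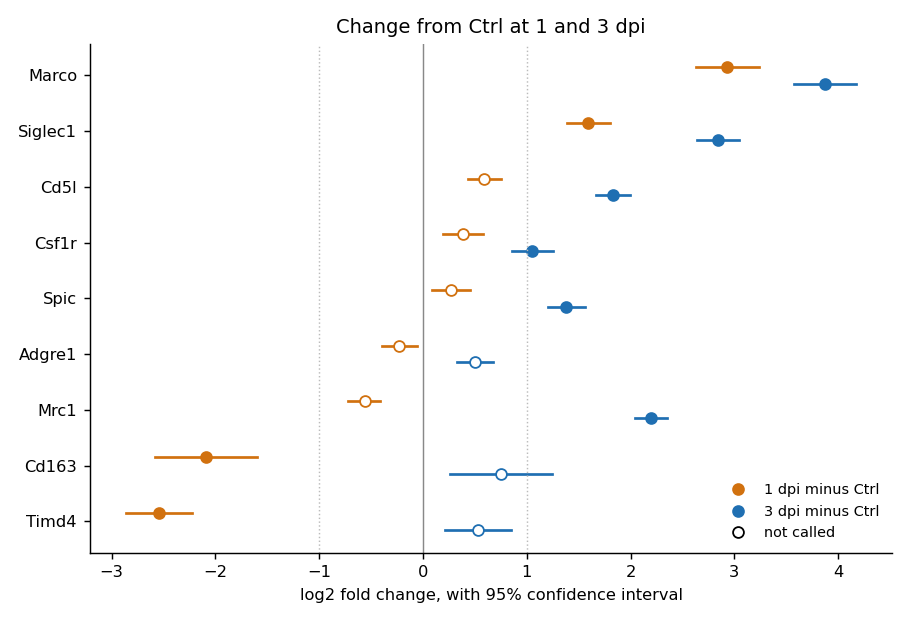
Log2 fold change from Ctrl (horizontal axis) of the 9 genes at 1 dpi (orange) and 3 dpi (blue), with 95% confidence intervals from limma, filled where the gene was called and open where it was not, and dotted lines at a 2-fold change. The estimates at 1 dpi run from -2.54 for Timd4 to 2.93 for Marco, whereas those at 3 dpi all lie above 0.

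The order of the changes therefore differed between days. At 1 dpi it ran from Timd4, Cd163, Mrc1 and Adgre1 on the lower side through Spic, Csf1r and Cd5l to Siglec1 and Marco. Neighbours whose 95% intervals overlapped were Timd4 (-2.86 to -2.23) and Cd163 (-2.58 to -1.60), Spic (0.09 to 0.45) and Csf1r (0.19 to 0.58), and Csf1r and Cd5l (0.43 to 0.75). At 3 dpi Marco and Siglec1 were again at the top, followed by Mrc1, Cd5l, Spic and Csf1r, and then by Cd163, Timd4 and Adgre1. The intervals of these last 3 overlapped, as did those of Csf1r (0.86 to 1.25) with Spic (1.20 to 1.56) and with Cd163 (0.26 to 1.24). The place of Siglec1 above Mrc1 (2.04 to 2.35) rests on the probe that stands for Siglec1. Its probe at base 5552 gave 2.30 (2.02 to 2.57), which overlapped with Mrc1, and the mean of its probes gave 2.21.

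Over the 9 arrays, the scaled log2 values of Timd4 and Cd163 followed each other (Pearson r = 0.96, n = 9), and those of Marco and Siglec1 did so too (r = 0.97, n = 9). Other pairs were as close, among them Adgre1 with Mrc1, Csf1r with Spic and with Cd5l, and Spic with Cd5l (r = 0.98 each). Marco and Timd4 had r = -0.13 and Marco and Cd163 r = -0.02. These values describe 9 arrays that fall into 3 groups, and they rest largely on the group means. Among all genes tested, those most like Timd4 were Rps6ka3 (r = 0.996) and Ect2 (r = 0.995). Those most like Siglec1 were Ms4a7, Atp6v0d2 and Rspo3, and those most like Marco were Sdc3, Adamts2 and Gm4951, with r of at least 0.998 each. Mrc1 was most like Slco2b1, Snx2 and Adam9, Cd163 most like Pdcl3, Ptprd and Pgm2, and Adgre1 most like Axl, Rhoq and Fn1. Csf1r was most like Plxnb2 and Tbx3, Spic most like Pltp, Gstt1 and Alox12, and Cd5l most like Cyp2s1, Slc38a6 and Dse. For Timd4 and Csf1r a further gene was not well above background on any array of at least 1 group and is left out.

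Promoter sequences from RefSeq (build GRCm38.p6) were at hand for 6 of the 9 genes, namely Marco, Mrc1, Cd5l, Cd163, Spic and Timd4, and not for Adgre1, Csf1r and Siglec1. The 250 bases before the start are shown for Marco, Mrc1, Cd163 and Timd4, the last 2 of which shared a time course, read in the direction of the gene. Capitals mark matches, on either strand, to GAGGAA, a core bound by PU.1 and SPIC, to GAAA repeated after any 2 bases, the form found in interferon response elements, or to TGCTGA, a core bound by MAF. None of the 3 motifs contains another. Marco lies on the minus strand at chr1:120505025-120505274, Mrc1 on the plus strand at chr2:14229164-14229413, Cd163 on the plus strand at chr6:124304401-124304650 and Timd4 on the plus strand at chr11:46810549-46810798.
Marco: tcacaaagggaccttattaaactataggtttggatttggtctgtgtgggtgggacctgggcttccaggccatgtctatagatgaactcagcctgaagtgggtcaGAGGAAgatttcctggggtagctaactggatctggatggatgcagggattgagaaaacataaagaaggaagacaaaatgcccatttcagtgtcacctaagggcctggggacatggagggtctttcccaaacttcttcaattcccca
Mrc1: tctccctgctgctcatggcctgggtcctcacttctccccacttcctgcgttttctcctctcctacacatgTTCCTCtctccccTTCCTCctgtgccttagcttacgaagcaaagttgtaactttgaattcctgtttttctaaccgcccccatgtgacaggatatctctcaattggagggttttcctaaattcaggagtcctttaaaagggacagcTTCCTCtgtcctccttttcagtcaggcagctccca
Cd163: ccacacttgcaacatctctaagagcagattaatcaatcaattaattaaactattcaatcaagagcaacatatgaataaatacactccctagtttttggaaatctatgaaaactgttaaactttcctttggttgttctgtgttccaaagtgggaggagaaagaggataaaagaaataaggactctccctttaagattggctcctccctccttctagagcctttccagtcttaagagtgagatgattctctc
Timd4: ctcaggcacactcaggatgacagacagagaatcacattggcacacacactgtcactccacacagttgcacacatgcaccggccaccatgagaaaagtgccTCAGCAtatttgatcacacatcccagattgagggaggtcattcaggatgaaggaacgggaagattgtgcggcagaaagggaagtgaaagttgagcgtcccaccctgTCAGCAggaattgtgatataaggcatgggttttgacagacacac
GAGGAA was found in 3 of the 6 genes (Marco, Mrc1 and Cd5l), beside 23.3% of all 32851 promoter entries of the same length. TGCTGA was found in 3 of the 6 (Cd5l, Spic and Timd4), beside 16.1%, and the spaced GAAA repeat in 0 of the 6, beside 2.98%. The 250 bases of Cd163 held 0 of the 3 motifs. A match describes letters in this window and is no evidence that a factor binds there.

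Several probes were on the array for 4 of the 9 genes, and they did not always give the same course. The probe that stands for Adgre1 lies at base 3135 of its transcript (chr17:57622843-57622902, mm9), and a further probe lies at base 934 (chr17:57550221-57550280). The probe at base 934 read -2.45, -2.23 and -2.41 on the log2 scale in Ctrl, -2.08, -2.23 and -2.27 at 1 dpi, and -2.65, -2.35 and -2.51 at 3 dpi. On this probe the 3 dpi arrays were not above those of Ctrl, and the log2 fold change was -0.14 (95% confidence interval -0.38 to 0.10) where the other probe gave 0.50. Between 3 and 1 dpi the probes gave opposite signs without overlap of the groups, with log2 fold changes of -0.31 (95% confidence interval -0.55 to -0.07) at base 934 and 0.73 (0.56 to 0.90) at base 3135. The higher level of Adgre1 at 3 dpi was thus seen with 1 of its probes, and which transcripts each probe detects was not tested.

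The additional Cd163 probe, at base 2610, was well above background on 3 of 3 Ctrl arrays, 0 of 3 arrays at 1 dpi and 3 of 3 at 3 dpi. Its rise from 1 to 3 dpi was at least 1.47-fold. For this bound, each 1 dpi array was given whichever was higher, the probe's signal or the dimmest signal that still counted as well above background, and their mean was compared with that of the 3 dpi arrays. For 1 dpi against Ctrl no such bound above 1 could be given. The additional Csf1r probe, at base 1841, had log2 fold changes of 0.52 at 1 dpi and 0.64 at 3 dpi, and was not called. Between 3 and 1 dpi it differed by 0.12 (95% confidence interval -0.07 to 0.31), and those groups overlapped. All 3 probes of Siglec1, at bases 1417, 5552 and 6190, had higher means at each later day. The probe at base 5552 was called at both days. The probe at base 1417 was well above background on 2 of 3 Ctrl arrays, so its change from Ctrl is not given. Between 3 and 1 dpi that probe differed by 0.54 (95% confidence interval -0.01 to 1.09), without overlap of the groups, and was not called.

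**Figure D3:**
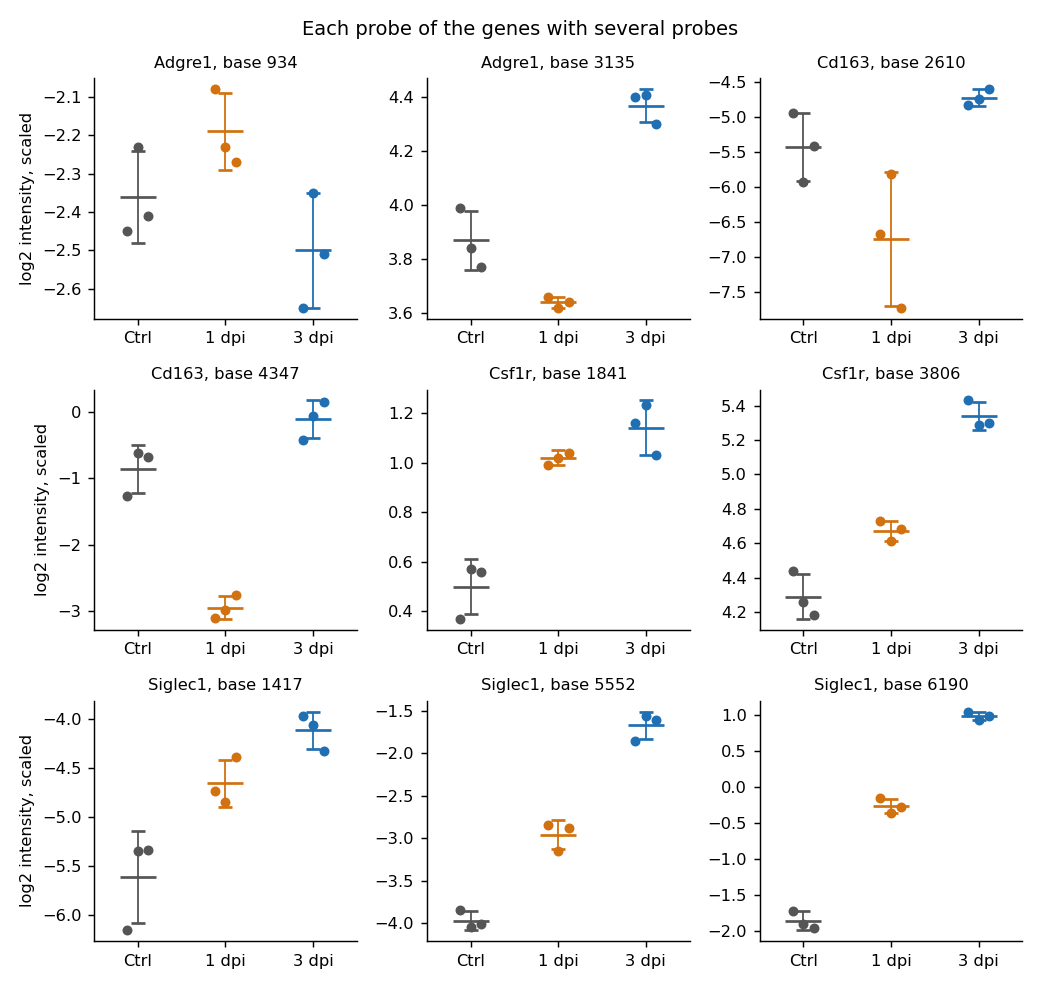
Scaled log2 intensity of each probe of Adgre1, Cd163, Csf1r and Siglec1 (vertical axis, a scale of its own in each panel, titled by gene and position in the transcript) on the 3 arrays of each group, with mean and SD (n = 3). The Adgre1 probe at base 934 has means of -2.36, -2.19 and -2.50, while the probe at base 3135 has 3.87, 3.64 and 4.37.

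Other genes of resident macrophages also took different courses. Of 36 such genes tested, 14 were called higher and 3 lower at 1 dpi, with a median log2 fold change of 0.50 against 0.23 over all genes. At 3 dpi 22 were called higher (21 without a gene well above background on 2 of 3 Ctrl arrays) and 0 lower. The median there was 1.62 against 0.12. With the array median as the scale the counts were 13 higher and 3 lower at 1 dpi, and 22 and 0 at 3 dpi. The genes that rose most at 3 dpi were Folr2 (34-fold), Stab1 (16.3-fold), Trem2 (14.5-fold) and Msr1 (9.88-fold), the last a scavenger receptor of the same class as MARCO. Like Timd4 and Cd163, Hpgd was lower at 1 dpi, where its log2 value fell by 2.98 (limma, adjusted p = 2e-06), and it was close to Ctrl at 3 dpi with a log2 difference of -0.15 that was not called. Fcna, named after its values were seen, fell by 2.27 on the log2 scale at 1 dpi. The remaining gene called lower was well above background on 1 of 3 arrays at 1 dpi, so its change is not given.

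Of 20 factors that direct macrophage genes, 5 were called higher and 0 lower at each day, beside 11.7% of all genes called higher at 1 dpi and 7.04% at 3 dpi. With the array median as the scale 1 of the 20 was called at 1 dpi, beside 6.42% of all genes called higher, and 5 at 3 dpi, beside 6.27%. Maf was 2.64-fold above Ctrl at 1 dpi and 7.51-fold at 3 dpi, and Nr1h3, which encodes the sterol receptor LXR alpha, was 2.10-fold and 3.60-fold above Ctrl. On the array median scale Nr1h3 was not called at 1 dpi, with a log2 fold change of 0.75. Pparg was 2.85-fold above Ctrl at 3 dpi. Haem and iron recycling was covered by 20 genes, and at 1 dpi 5 of them passed as higher and 2 as lower (3 and 3 with the array median). The 2 lower genes, Epor and Tfrc (the latter named after its values were seen), also stand in the erythroid list. At 3 dpi 4 of the 20 passed as higher and 0 as lower. Among all genes, 11.7% passed as higher and 3.08% as lower at 1 dpi (6.42% and 7.83% with the array median). The shares at 3 dpi were 7.04% and 1.79%. Hmox1, which breaks down haem, was 3.01-fold above Ctrl at 1 dpi (limma, adjusted p = 0.0012) and 2.49-fold at 3 dpi (limma, adjusted p = 0.0048).

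Relatives of the 9 genes did not move as a block. At 1 dpi 7 of 25 family members tested were called higher and 4 lower, which the array median as the scale turned into 3 higher and 6 lower. At 3 dpi the counts were 5 and 3. Mrc2 and Pla2r1, named after their values were seen, were not well above background on every Ctrl and 1 dpi array. Without them the counts were 6 and 4 at 1 dpi and 3 and 3 at 3 dpi. The shares of all genes called higher and lower were 11.7% and 3.08% at 1 dpi, and 7.04% and 1.79% at 3 dpi. The array median also moved the shares at 1 dpi, to 6.42% and 7.83%. Scara3 was 14.1-fold and Msr1 9.88-fold above Ctrl at 3 dpi. Spib, a close relative of Spic that B cells and plasmacytoid dendritic cells use, was 12.7-fold below Ctrl at 1 dpi and 9.17-fold at 3 dpi, and Flt3, a receptor related to Csf1r, was 4.40-fold below Ctrl at 3 dpi.

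Markers of other cell types also changed, in part with another course than the 9 genes. The summed scaled intensity of the 9 genes was 46.2, 42.1 and 40.3 on the Ctrl arrays, 50.1, 47.7 and 49.5 at 1 dpi, and 97.1, 92.6 and 92.2 at 3 dpi, with Csf1r the largest contributor (46.1%). Without Csf1r the sum averaged 23.3 in Ctrl, 23.6 at 1 dpi and 53.4 at 3 dpi. That of 12 stromal genes was 15.2, 14.5 and 15.3 in Ctrl, 72.9, 63.2 and 68.8 at 1 dpi, and 141, 128 and 139 at 3 dpi, with Cxcl12 the brightest. Of the stromal genes, 8 were called higher and 0 lower at each day. That of 11 endothelial genes was 16.6, 14.3 and 14.3 in Ctrl and 25.7, 22.8 and 23.3 at 3 dpi. Vwf, the brightest, made up 49% of this sum, is also a megakaryocyte gene and was not called, and without it the sum was 5.98, 5.35 and 5.47 in Ctrl and 16.4, 13.8 and 14.3 at 3 dpi. Of the 11 genes, 3 were called higher at 1 dpi (1 higher and 1 lower with the array median) and 6 at 3 dpi, which is 2 and 5 without Flt4, a gene named after its values were seen and well above background on 2 of 3 Ctrl arrays and 2 of 3 at 1 dpi. Of 10 B cell genes, 8 were called lower at 1 dpi and 9 at 3 dpi, and their sum was 42.2, 39.6 and 40.8 in Ctrl against 8.21, 7.95 and 7.96 at 3 dpi, with Cd79b the brightest. Without Cd79b, which made up 50.4% of it, the sum was 24.9, 24.2 and 24.4 in Ctrl and 2.33, 2.22 and 2.32 at 3 dpi. All genes of these 3 lists passed the filter on dim probes. Next to the call counts of the 3 lists stand all-gene shares of 11.7% up and 3.08% down at 1 dpi. The array median changed those shares to 6.42% and 7.83%. At 3 dpi, calls went up for 7.04% of all genes tested and down for 1.79%. The part of a changed mix of cells in the courses of the 9 genes was not tested.

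Of 20 megakaryocyte genes tested, 0 were called at 1 dpi by limma (2 lower with the array median) and 2 were called higher at 3 dpi (P2ry12 and Mpig6b). Between 3 and 1 dpi 1 was called higher (4 with the array median), beside 4.16% of all genes (6.05% with the array median). Their sum, with Pf4 the brightest, was 284, 253 and 252 in Ctrl, 269, 255 and 249 at 1 dpi, and 288, 287 and 281 at 3 dpi. Of the genes whose products were used for selection, Itga2b had a log2 fold change of 0.67 at 1 dpi (limma, adjusted p = 0.00015) and Gp5 one of -0.56 (limma, adjusted p = 0.011), each without overlap of the groups and under the 2-fold minimum. The log2 fold changes at 3 dpi were -0.02 for Itga2b, -0.28 for Gp5 and 0.01 for Pf4, and none of these 3 genes was called. For the megakaryocyte list and the lists below, the all-gene call rates were 11.7% up and 3.08% down at 1 dpi. With the array median they were 6.42% and 7.83%. The rates at 3 dpi were 7.04% up and 1.79% down. Of 20 monocyte genes, 3 were called higher at 1 dpi (1 higher and 1 lower with the array median) and 4 at 3 dpi. Among them, S100a4 and Ccr2 were 4.01-fold and 3.11-fold above Ctrl at 3 dpi. Of 13 neutrophil genes, 1 was called higher at 1 dpi (S100a8, not called with the array median) and 0 at 3 dpi. Of 11 erythroid genes, 7 were called lower at 1 dpi (5 without the genes well above background on 0 of 3 arrays there) and 8 at 3 dpi, while Hba-a1 was called higher at 1 dpi, which neither the array median nor quantile normalization gave. Epor and Tfrc are among the 7 and were also counted with haem and iron recycling. T and NK cells were covered by 9 genes, with 2 called higher at 1 dpi (0 with the array median) and 4 at 3 dpi. For dendritic cells 9 genes were tested, and the first day gave 2 higher and 3 lower (0 and 5 with the array median), while 3 dpi gave 0 higher and 2 lower.

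**Figure D4:**
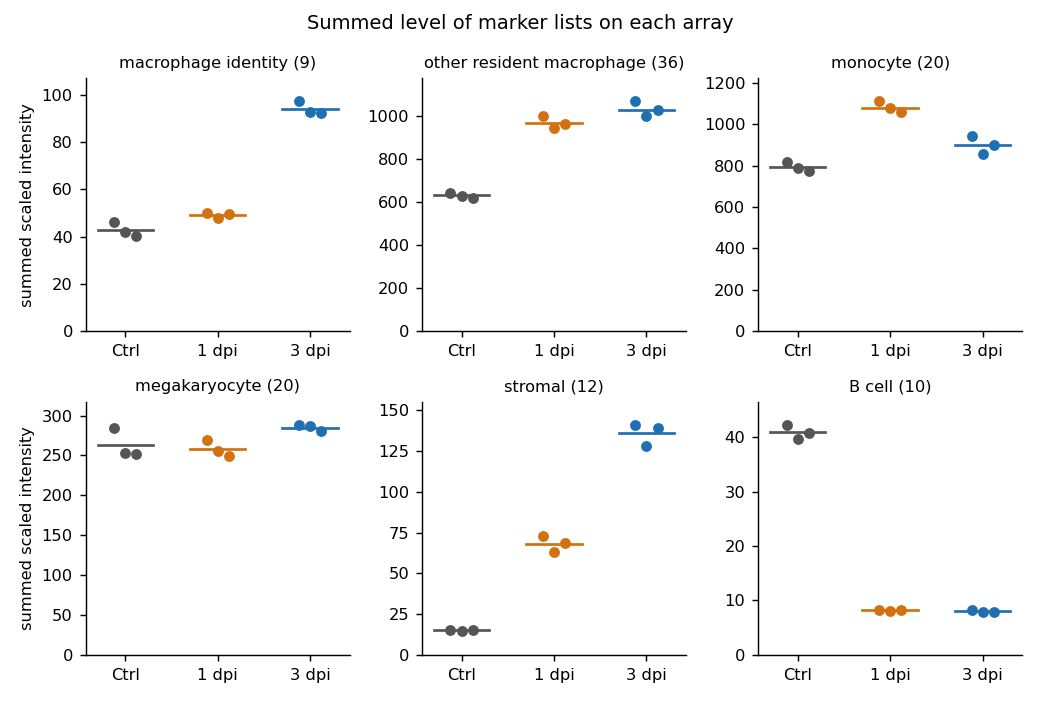
Summed scaled intensity (vertical axis, linear and from 0, the sum over the genes tested, whose number is in brackets) of 6 marker lists on the 3 arrays of each group (points), with the mean (bar). The sum of the 9 macrophage identity genes averages 42.9 in Ctrl, 49.1 at 1 dpi and 94 at 3 dpi, and that of the stromal genes 15, 68.3 and 136.

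Ctrl replicate 1 was the only array on its slide and had the lowest share of spots well above background among the Ctrl arrays (69.1%, against 79.5% and 80.8%). Within the other slide, which holds all 3 groups, the log2 fold change at 1 dpi was 2.80 for Marco, 1.67 for Siglec1, -2.29 for Cd163 and -2.45 for Timd4, and the same number of the 9 genes was called as with all arrays in each comparison. Without Ctrl replicate 3, Csf1r at 3 dpi was at 0.99 and not called. The 1 dpi arrays had the lowest 75th percentiles (8.85, 8.96 and 8.94 on the log2 scale). Those of Ctrl were 9.52, 10.12 and 10.15, and those of 3 dpi 9.85, 10.04 and 10.02. Their shares of spots well above background were 72.3%, 74.8% and 75.6% at 1 dpi, and 81.8%, 81.6% and 81.8% at 3 dpi. The part of this in the falls of Timd4 and Cd163 at 1 dpi was not tested. The number of arrays limits the precision, and with 3 arrays on each side the smallest p of a two-sided exact permutation test is 0.10.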

How the data were processed

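RNA of mMKs from 9 samples (3 groups of 3) was measured on Agilent arrays, although the methods describe another maker's chip, so only the file headers were followed. The authors deposited spot intensity values from Agilent Feature Extraction 10.7.1.1, with background subtracted and no scaling from array to array. A log2 table was deposited by the authors as well, whose values for the 9 genes matched quantile-normalized log2 intensities of the same probes within 0.002. How that table was made is not given in the sources used here, and it was an alternative only. Its median per array was between 5.79 and 5.87.

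Control spots (3671 of 62976) and outlier spots were left out, which removed 20 of 56605 probes, and 0 spots were saturated. Spots of a probe were averaged. Of the probes, 32984 were named through RefSeq accessions (GRCm38.p6) and 23601 kept the name in the files. The share of spots well above background ran from 69.1% to 81.8%. From each log2 intensity the array's 75th percentile was subtracted. A probe was tested if every array of some group had it well above background, and the brightest stood for its gene. The 3 groups were fitted in 1 model with limma 3.58.1 in R 4.3.3 with the package data.table, version 1.17.8. Python 3.11.15 and matplotlib 3.10.9 drew the plots. The fit was tested on simulated data, where a first limit on the share of changed genes recovered was not met and the criterion was then revised with that outcome known.

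The 9 genes and the 15 further lists were chosen with earlier results of these data known. Some genes stand in several of the further lists, so the counts of those lists are not independent. Named genes are the 9, from each list up to 4 called genes with the largest change at each day among genes well above background in both groups, named partners (Itga2b, Gp5, Pf4, Csf1, Il34, Spi1, Nr1h3, Hmox1, and a gene not reported here), and for each of the 9 the 3 genes with the highest Pearson correlation, less those not well above background in a group. Alternatives were array median, quantile and normexp (offset 50) normalization, the deposited table, other filters, the mean of probes, no minimum fold, eBayes with trend, only the groups compared, the methods' t-test, slide and replicate block, and leaving out each array. The percentile that Feature Extraction recorded was added after seeing the data, and so were the counts of the lists with array median and quantile scaling.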

Additional observations from a re-analysis of the deposited data

Results flagged for a closer look

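By limma's contrast of 3 dpi with 1 dpi in the model of all 3 groups, the change from Ctrl differed at least 2-fold between the days for 6 of the 9 genes, all higher at 3 dpi, beside 4.16% of all genes called higher and 4.48% called lower. The other 3 also differed in this contrast at an adjusted p under 0.05, by less than 2-fold (0.94 for Marco, 0.73 for Adgre1 and 0.67 for Csf1r), and with the array median as the scale 7 of the 9 were called. The log2 difference was 3.07 for Timd4 (-2.54 at 1 dpi and 0.53 at 3 dpi) and 2.83 for Cd163 (-2.09 and 0.75). It was 2.76 for Mrc1 (-0.56 and 2.20). For Siglec1 it was 1.25 (1.59 and 2.84), for Cd5l 1.24 (0.59 and 1.83) and for Spic 1.11 (0.27 and 1.38). Both changes use the same Ctrl arrays. The 3 dpi arrays did not overlap with those of 1 dpi for any of the 9 genes on the probe that stands for it, as for 65.2% of all genes. The additional probes of Csf1r and Adgre1 gave 0.12 with overlap and -0.31. Groups of 3 arrays are too small to test for outliers.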

How the results depend on the processing

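Under 13 alternatives and with each array left out, 4 of the 9 genes (2 up, 2 down) were called at 1 dpi except with no minimum fold, which called 9. The numbers of the 9 called ranged from 4 to 4, from 5 to 6 and from 6 to 6 for 1 dpi against Ctrl, 3 dpi against Ctrl and 3 against 1 dpi when an array was left out. Of all genes, 3543 to 5247, 2369 to 2790 and 2231 to 2810 were then called, in place of 4361, 2596 and 2542. With no minimum fold 16275, 9391 and 13016 genes were called, and after normexp and quantile normalization 1660, 1142 and 1079. The offset that normexp adds shrinks fold changes of dim probes. Spic at 1 dpi was at -0.05 with the array median as the scale. Csf1r at 3 dpi was not called at 0.90 (array median), 1.00 (quantile normalization), 0.99 (deposited table) and 0.84 (mean of probes), and Marco between 3 and 1 dpi was called at 1.11 with the array median. For these values the cause was not tested.

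Of the genes called at 1 dpi, 79.2% were higher, against 45% with the array median, 56.2% after quantile normalization and 49.8% in the deposited table. Between 3 and 1 dpi the share was 48.2%, against 68.2% and 62.9%. The methods' t-test had 15559, 10518 and 16718 genes at an unadjusted p under their threshold, and after Benjamini-Hochberg adjustment and the fold minimum called 3303, 2210 and 2464.

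Arrays with the same number share only that number. The correlation of their deviations from the group means was between -0.11 and 0.13. The replicate block gave 4186, 2505 and 2455 genes and 4, 6 and 6 of the 9, and changed no call among the 9. The percentile that Feature Extraction recorded, added after seeing the data, gave 4468, 2587 and 2588. Signal over background limits the additional Cd163 probe at 1 dpi, where the signal of Timd4 was also faint.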
